A study of Homo sapiens with 6 samples.

Results

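Aldo-keto reductases of the AKR1A, AKR1B and AKR1C branches were followed in RNA sequencing libraries of cells labelled Hep3B, a human hepatocellular carcinoma line. The family was taken as the 8 genes AKR1A1, AKR1B1, AKR1B10, AKR1B15, AKR1C1, AKR1C2, AKR1C3 and AKR1C4, each matched by symbol to 1 row of a table of 58243 genes. The control group received si-NC, the control small interfering RNA (siRNA), and the other group received si-SNHG17-1, an siRNA named for the long noncoding RNA SNHG17, with 3 libraries in each. Both groups were grown in DMEM medium with FBS and transfected, and no dose or time after transfection is given in the labels. The labels do not say whether the libraries came from separate cultures, so the errors below measure the spread between libraries, which may be technical. The family was chosen with its change between these groups already known, so that change is given as a description, without p-values for its genes.

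Aldo-keto reductases are cytosolic enzymes that use NADPH to reduce aldehydes and ketones to alcohols. AKR1A1 is aldehyde reductase and AKR1B1 is aldose reductase, which starts the polyol pathway by reducing glucose to sorbitol, while AKR1B10 reduces retinal and fatty aldehydes and is known for its rise in liver and lung cancers. The AKR1C enzymes are hydroxysteroid dehydrogenases that act on progesterone, androgens, bile acid precursors and prostaglandins, and AKR1C4 is the member most restricted to liver. Several of these genes are established targets of NRF2, the transcription factor of the antioxidant response.

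Total counts per library ranged from 30207055 to 42271168, and a floor of 3 counts corresponded to 0.0712 to 0.0976 CPM (a count scaled to library size with TMM factors), for counting error only. SNHG17 had 843, 953 and 948 counts in si-NC, against 307, 338 and 254 with si-SNHG17-1, which left 35.2% of the control CPM. Of 12 markers of hepatocytes and Hep3B cells, 10 stayed under 1 CPM in every library, among them AFP (0 to 9 counts) and ALB (6 to 31 counts), and TTR and GPC3 were at 0, so the labelled identity is not borne out by these markers. Of the 5 fibroblast markers, 1 was at 0 in every library. Their summed level was 148 to 163 CPM in si-NC, against 202 to 230 CPM with si-SNHG17-1, with COL1A1 at 79.4 to 118 CPM, with no test of their part in the results below. The endothelial markers (3 genes) summed to 2.23 to 3.71 CPM in si-NC, against 5.96 to 7.73 CPM with si-SNHG17-1, and the leukocyte markers (3 genes, each under 1 CPM) to 0.732 to 1.28 CPM and 0.288 to 0.795 CPM. The part of these in the results was not tested either.

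Paralogs of this family are similar enough to share reads, so their sequences are given before their values. In the coding sequences of GENCODE release 29, AKR1C1 and AKR1C2 were 98.0% identical, with 19 substitutions over 972 bases and a longest identical run of 189 bases. AKR1C3 was 91.5% identical to AKR1C1 and 91.0% to AKR1C2. AKR1B10 and AKR1B15 were 85.9% identical over 1035 aligned columns, of which 84 were gaps, while AKR1B1 was 76.2% identical to AKR1B10 and AKR1A1 was at most 60.4% identical to any other member. The stretch of 90 coding bases in which AKR1C1 and AKR1C2 differ most, coding positions 73 to 162 counted from the first base of the start codon, is shown because it holds 10 of their 19 differences. Capitals in AKR1C1 and AKR1C2 mark the bases that differ between them, and capitals in AKR1C3 mark its 11 differences from AKR1C1.
AKR1C1: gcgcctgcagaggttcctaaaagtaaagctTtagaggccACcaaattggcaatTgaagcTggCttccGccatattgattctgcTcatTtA
AKR1C2: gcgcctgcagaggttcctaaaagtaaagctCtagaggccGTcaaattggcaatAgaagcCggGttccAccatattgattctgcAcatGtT
AKR1C3: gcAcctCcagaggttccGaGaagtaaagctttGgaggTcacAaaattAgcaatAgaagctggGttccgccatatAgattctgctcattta
Among stretches aligned without a gap, the 90 bases in which AKR1B10 (coding positions 848 to 937) and AKR1B15 (932 to 1021) differ most hold 11 differences, also in capitals.
AKR1B10: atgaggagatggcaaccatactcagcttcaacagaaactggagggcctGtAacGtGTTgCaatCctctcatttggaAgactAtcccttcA
AKR1B15: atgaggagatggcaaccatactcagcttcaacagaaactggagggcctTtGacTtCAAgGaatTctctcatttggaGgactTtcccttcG

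**Figure D1:**
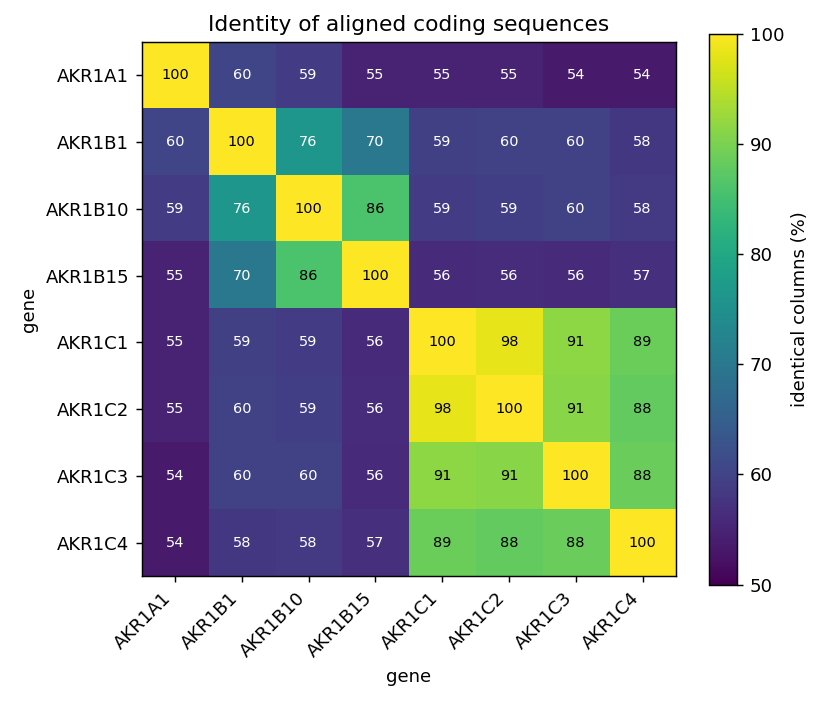
Heat map of the percent of identical columns in pairwise global alignments of the coding sequences of the 8 genes (both axes list genes, colour and printed number give percent). AKR1C1 and AKR1C2 form the closest pair at 98%, followed by the other AKR1C pairs at 88% to 91% and by AKR1B10 with AKR1B15 at 86%.

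The share of each gene that can be counted without ambiguity depends on the length of a read, which is not given in the sources used here. Of all 50-base windows of coding sequence, 54.5% in AKR1C1 and 57.2% in AKR1C2 also occurred in a transcript of another gene, against 23.0% in AKR1C3, 28.4% in AKR1B10 and 18.6% in AKR1B15. With 100-base windows the shares were 21.0% and 26.7% in AKR1C1 and AKR1C2, 9.7% in AKR1C3 and at most 3.5% in any other member. With 150-base windows they were 5.0% and 7.7% in AKR1C1 and AKR1C2 and 2.7% in AKR1C3, and AKR1B10 and AKR1B15 had none. AKR1A1 had no shared coding window at any of these lengths, and AKR1B1 had 7.2% at 50 bases and none at 100 or 150. Over whole transcripts the shares at 50 bases were 28.6% in AKR1C1, 38.9% in AKR1C2 and 2.54% in AKR1A1. No exon of a member overlapped an exon of another gene, and the other genes of the table lying within members' intervals, AL391427.1, U8 copies and ARL4AP3, were at 0 in every library. The counts of AKR1C1, AKR1C2, AKR1C3, AKR1B10 and AKR1B15 are therefore uncertain in how they divide between neighbouring paralogs, and sums are given beside them.

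AKR1B1 had the highest level of the family. Levels between genes are compared as CPM per kilobase of the longest annotated transcript. On that scale the order in si-NC was AKR1B1 at 351 ± 41.3 (SD, n = 3), AKR1C3 at 51.9 ± 2.22, AKR1A1 at 26.7 ± 2.59, AKR1C1 at 8.18 ± 0.322, AKR1C2 at 2.55 ± 0.431, AKR1B15 at 1.12 ± 0.504 and AKR1B10 at 0.811 ± 0.415. The libraries of AKR1B15 and AKR1B10 overlapped, while every other pair of neighbours in this order was separate. With si-SNHG17-1, AKR1C3 at 28.2 ± 1.27 and AKR1A1 at 27.3 ± 0.973 overlapped, and AKR1C1 stood at 2.95 ± 0.223. The place of AKR1C1 depends on the length, since its longest transcript of 6705 bases is far longer than its coding sequence of 972 bases. Per kilobase of coding sequence, a scale chosen after seeing the data, AKR1C1 was at 56.4 ± 2.22 and AKR1A1 at 49.7 ± 4.82 in si-NC, with overlapping libraries.

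AKR1C4 had 0 counts in 5 libraries and 4 counts in si-SNHG17-1 replicate 1. A count of 0 allows up to 0.0718 to 0.0796 CPM in the si-NC libraries, so transcripts of this liver-restricted enzyme were not detectable at this depth there, and no fold is given.

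Of the 8 members, 7 passed the filter on low counts and 4 of these passed the threshold for a lower level (adjusted p under 0.05 by the quasi-likelihood test of edgeR), where 5.21% of all 18679 tested genes did so. None passed for a higher level (5.25% of all tested genes by edgeR), also not at an unadjusted p under 0.05 or by DESeq2. DESeq2 called 1426 of 16787 genes higher and 1392 lower. Shares of all genes at an unadjusted p are not given, so counts at that threshold, here and below, stand without one. In 5 of the 7, every si-SNHG17-1 library was below every si-NC library, against 17.3% of all tested genes. AKR1C1 and AKR1C2 were also called lower by 2-fold or more, as were 0.691% of tested genes. The family was chosen on this contrast, so these counts describe it and support nothing further. In bulk RNA, fewer cells expressing a gene and less RNA per cell cannot be told apart.

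AKR1B1, the aldose reductase gene (ENSG00000085662.13, chromosome 7, 134442350 to 134459284 of GRCh38, minus strand), had 24051, 26085 and 30495 counts in si-NC, against 16946, 17409 and 13492 with si-SNHG17-1. These were 638, 624 and 769 CPM in si-NC, against 443, 413 and 439 CPM with si-SNHG17-1. All 3 si-SNHG17-1 libraries lay below the lowest control, and si-NC replicate 3 was the highest of all. The mean went from 677 ± 79.6 to 432 ± 16.4 CPM, or 63.8% of control, a log2 fold change of −0.65 ± 0.09 (SE). In CPM, without regard to length, it ranked 123 among all tested genes in si-NC.

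AKR1A1, the aldehyde reductase gene on chromosome 1 (45550543 to 45570049), was not called. Its levels were 44.5, 47.6 and 53.7 CPM in si-NC, against 49.99, 47.7 and 51.2 CPM with si-SNHG17-1. The groups overlapped, with si-SNHG17-1 lying inside the control range, and the log2 fold change was 0.03 ± 0.10 (SE). AKR1B1 made up 93.5%, 92.9% and 93.5% of the counts of AKR1A1 and AKR1B1 together in si-NC, against 89.9%, 89.6% and 89.6% with si-SNHG17-1.

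**Figure D2:**
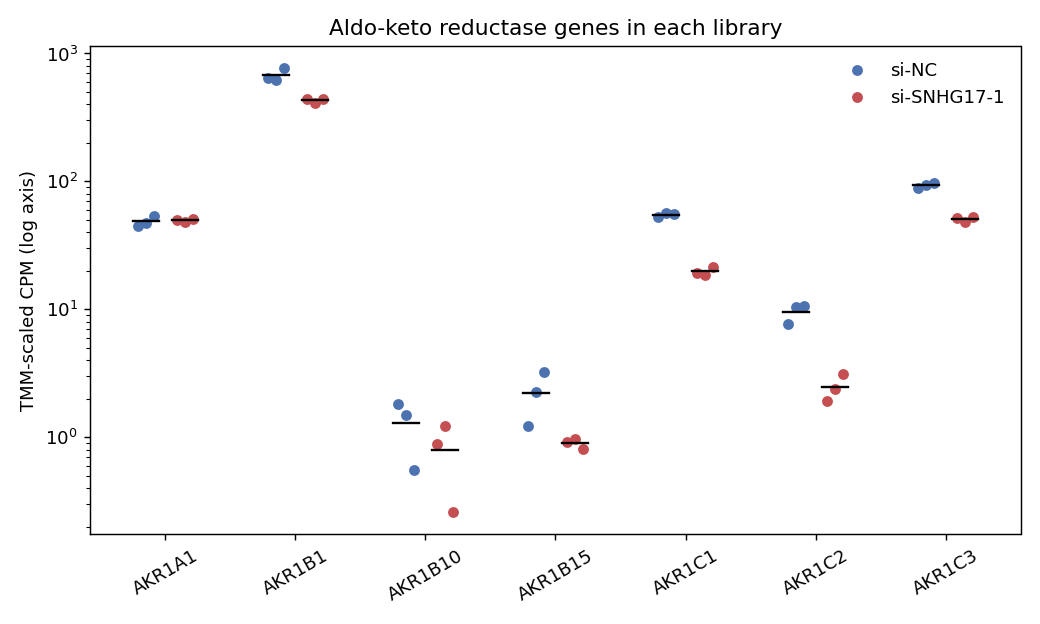
TMM-scaled CPM (log axis) of 7 family genes in each library, with 3 si-NC points in blue and 3 si-SNHG17-1 points in red per gene and the group mean as a black bar. AKR1C4, at 0 in the controls, is not drawn. The groups are separate for AKR1B1, AKR1B15, AKR1C1, AKR1C2 and AKR1C3 and overlap for AKR1A1 and AKR1B10.

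Within the AKR1C cluster on chromosome 10, the estimated size of the difference was graded. AKR1C2 was lowest relative to control, AKR1C1 followed, and AKR1C3 differed least. The order of AKR1C2 and AKR1C1 was not tested, and the division of reads between them is uncertain. AKR1C1 (ENSG00000187134.13, 4963253 to 4983283, plus strand), whose enzyme inactivates progesterone, had 1973, 2346 and 2221 counts in si-NC, against 739, 782 and 659 with si-SNHG17-1. In CPM the controls were at 52.3, 56.1 and 56.0 and the si-SNHG17-1 libraries at 19.3, 18.6 and 21.4. The groups were far apart compared with their spread. The mean went from 54.8 ± 2.16 to 19.8 ± 1.496 CPM, 36.1% of control, a log2 fold change of −1.47 ± 0.10 (SE).

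AKR1C2 (ENSG00000151632.17, 4987400 to 5018031, minus strand), whose enzyme inactivates dihydrotestosterone, was much scarcer. It had 291, 434 and 422 counts in si-NC, against 73, 101 and 96 with si-SNHG17-1, or 7.72, 10.4 and 10.6 CPM against 1.91, 2.40 and 3.12 CPM. The lowest control, si-NC replicate 1, was still above every si-SNHG17-1 library. The mean was 25.9% of control and the log2 fold change −1.95 ± 0.24 (SE), which ranked 96 from the lowest among all tested genes.

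AKR1C3 (ENSG00000196139.13, 5035354 to 5107686, plus strand) makes testosterone from androstenedione and is also a prostaglandin F synthase. It had 3375, 3947 and 3867 counts in si-NC, against 1961, 2040 and 1627 with si-SNHG17-1. Its levels were 89.5, 94.5 and 97.5 CPM in si-NC, against 51.3, 48.4 and 52.9 CPM with si-SNHG17-1, with no overlap. The mean was 54.2% of control, a log2 fold change of −0.88 ± 0.08 (SE).

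Because AKR1C1 and AKR1C2 may trade reads, they were also summed. Together they held 2264, 2780 and 2643 counts in si-NC, against 812, 883 and 755 with si-SNHG17-1, and the summed row had a log2 fold change of −1.53 ± 0.11 (SE). Adding AKR1C3 gave 5639, 6727 and 6510 counts against 2773, 2923 and 2382, with a log2 fold change of −1.11 ± 0.08 (SE). Both sums passed the same threshold for a lower level, and their groups did not overlap. They are made of the members' own counts, so passing describes them and supports nothing further.

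The makeup of the cluster also differed between groups. AKR1C2 held 12.9%, 15.6% and 16.0% of the AKR1C1 and AKR1C2 counts in si-NC, against 8.99%, 11.4% and 12.7% with si-SNHG17-1. The highest si-SNHG17-1 share was just under the lowest control share. AKR1C3 held 63.1%, 62.7% and 63.5% of the AKR1C1 and AKR1C3 counts in si-NC, against 72.6%, 72.3% and 71.2% with si-SNHG17-1, a gap many times the spread within either group. Over the whole family, per kilobase of longest transcript, AKR1C1 went from 1.86% ± 0.166 to 1.04% ± 0.0581 of the summed level and AKR1A1 from 6.05% ± 0.228 to 9.63% ± 0.127. AKR1B1 made up 79.3% ± 1.28 in si-NC, against 78.8% ± 0.317 with si-SNHG17-1, with overlapping libraries.

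**Figure D3:**
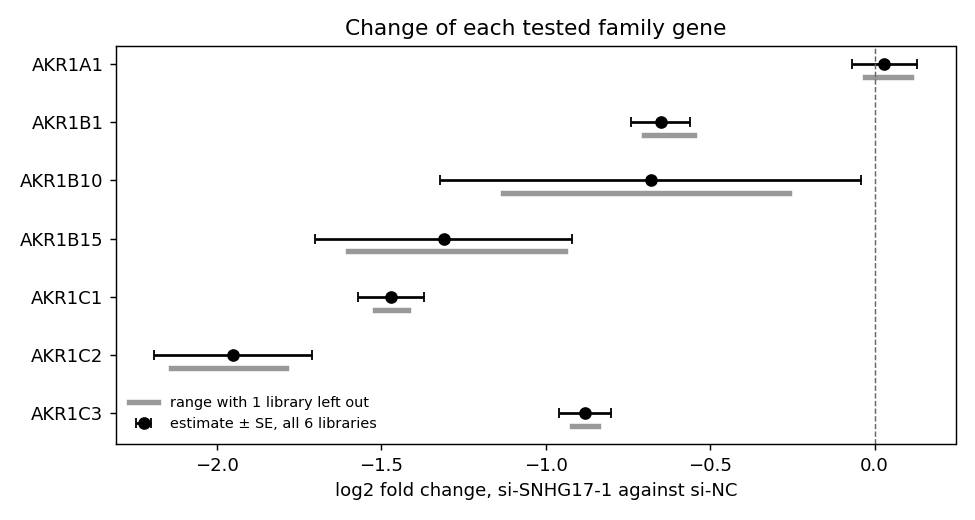
Log2 fold change (si-SNHG17-1 against si-NC, x axis) of the 7 family genes that passed the count filter (y axis), as the estimate with its standard error in black and the range of estimates with each library left out in grey. AKR1C2, AKR1C1 and AKR1C3 stand at −1.95, −1.47 and −0.88, AKR1A1 stands at 0.03, and AKR1B10 spans −1.13 to −0.26.

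The scarce pair AKR1B10 and AKR1B15 on chromosome 7 (134527592 to 134541408 and 134549136 to 134579875, plus strand) had few counts. AKR1B10, the retinal reductase gene, had 69, 62 and 22 counts in si-NC, against 34, 52 and 8 with si-SNHG17-1. The groups overlapped, and the log2 fold change of −0.68 ± 0.64 (SE) was about as large as its error. AKR1B15, its closest paralog, had 46, 94 and 128 counts in si-NC, against 35, 41 and 25 with si-SNHG17-1. Its groups did not overlap, although si-NC replicate 1 stood close to si-SNHG17-1 at 1.22 CPM against 0.915, 0.972 and 0.813 CPM. Its log2 fold change was −1.31 ± 0.39 (SE), short of the threshold for a call. Leaving out si-NC replicate 1 moved it to −1.60 and past the threshold.

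The controls of this pair differed widely in which paralog prevailed. AKR1B15 held 40.0%, 60.3% and 85.3% of the pair's counts in si-NC replicates 1, 2 and 3. In si-SNHG17-1 its share was 50.7%, 44.1% and 75.8%. Summed, the pair was steadier in the controls at 115, 156 and 150 counts, and had 69, 93 and 33 in si-SNHG17-1. In CPM the sums were 3.05, 3.73 and 3.78 against 1.80, 2.21 and 1.07, without overlap. The summed log2 fold change was −1.05 ± 0.30 (SE) and did not pass the threshold.

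The table held 19 further genes named for aldo-keto reductases, 14 of them with pseudogene names. Of these, 10 were at 0 in every library and 3 could be tested, while the other 6 had at most 9 counts in a library. AKR7A2, which reduces succinic semialdehyde, had a log2 fold change of −0.02 ± 0.16 (SE), AKR7A3 of −0.48 ± 0.44 and AKR7L of −0.19 ± 0.33. None of the 3 was called by the edgeR test (adjusted p of 0.966, 0.548 and 0.764). The bile acid reductase gene AKR1D1 had 5 counts in 1 library and 0 in the others, and AKR1E2, the family gene next to the AKR1C cluster, had 9 counts in 1 library and 0 in the others.

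No tested gene within 500 kb of a member was called, where 10.5% of all tested genes were called in either direction. The tested genes at each locus are too few to tell a count of none from that share. Within 500 kb of the AKR1C genes, 5 of 32 other genes could be tested and none was called. These 5 start 449 to 749 kb from the start of AKR1C1. Near the AKR1B genes it was none of 7 tested, and near AKR1A1 none of 18, by edgeR and by DESeq2. At an unadjusted p under 0.05 there were 2 higher and 1 lower gene near the AKR1B genes and none at the other loci. The most abundant neighbours were FAM208B near AKR1C (178 ± 42.0 CPM in si-NC, 169 ± 14.0 in si-SNHG17-1), CALD1, an actin-binding protein gene, near AKR1B (241 ± 11.6 and 266 ± 24.9) and PRDX1, a peroxiredoxin gene, near AKR1A1 (540 ± 7.74 and 458 ± 124). PRDX1 passed the edgeR threshold in only 1 of 6 fits with a library left out. That was the fit without si-SNHG17-1 replicate 1, with a log2 fold change of −0.47. Without si-SNHG17-1 replicate 3 the value for PRDX1 was −0.1 (edgeR adjusted p = 0.79). LRGUK was the neighbour with the lowest value among those near AKR1B1, −1.14 ± 0.33 (SE) with an edgeR adjusted p of 0.0714, and was picked for mention after its value was seen.

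**Figure D4:**
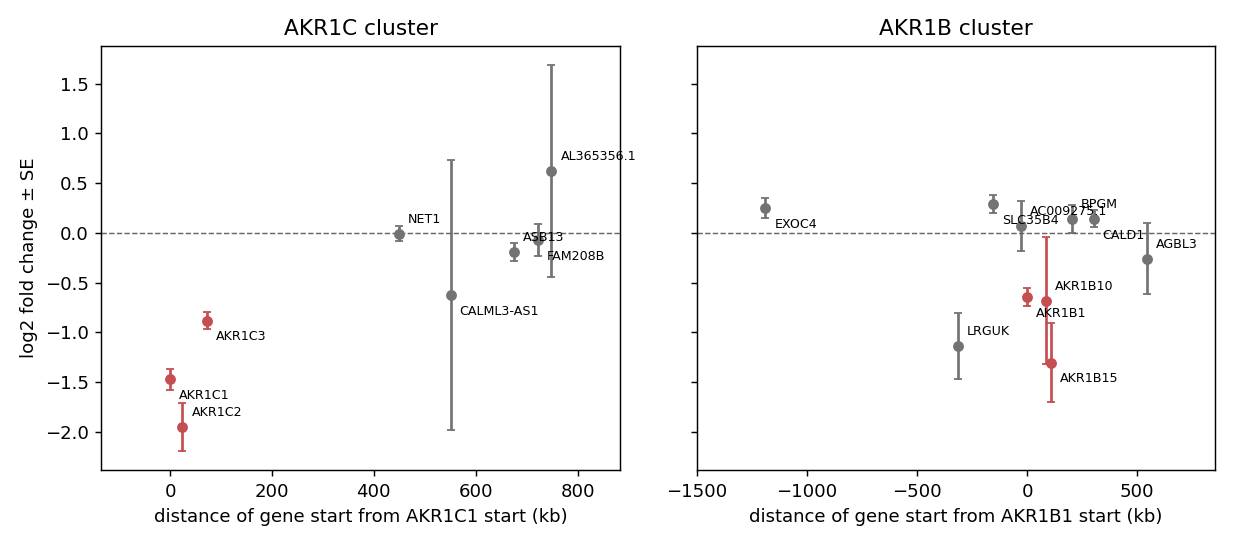
Log2 fold change with standard error (y axis) of every tested gene within 500 kb of the AKR1C genes (left) or AKR1B genes (right), against the distance of its start from the start of AKR1C1 or AKR1B1 in kb (x axis). Family members are red and other genes grey; AKR1C1, AKR1C2 and AKR1C3 lie at −0.88 or below, and of their 5 testable neighbours NET1, ASB13 and FAM208B lie between −0.19 and −0.01, and the scarce CALML3-AS1 and AL365356.1 lie at −0.63 and 0.62 with errors above 1.

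The start regions of AKR1C1 and AKR1C2 are close copies of each other. RefSeq promoter windows (GRCh38.p14, 250 bases before to 50 after a start site) were found for 6 of the 8 members, 8 windows in all. AKR1B10 and AKR1B15 had no window. Full windows were 93.5% identical between AKR1C1 and AKR1C2 and 73.5% between AKR1C1 and the upstream window of AKR1C3. In the 250 bases before the RefSeq start site the pair shared an uninterrupted run of 245 bases. In AKR1C1 the GENCODE annotation starts the gene at 4963253, within this run. The 161 bases from there on are not printed, and how many of them are exonic in each gene was not checked. The first 84 bases overlap no exon of either gene, although in AKR1C2 they lie within the gene, whose annotated interval begins further upstream. Those are printed because they are the same for the pair that differed most from control (AKR1C1 chr10:4963169-4963252, plus strand, and AKR1C2 chr10:5004024-5004107, minus strand).
AKR1C1 and AKR1C2: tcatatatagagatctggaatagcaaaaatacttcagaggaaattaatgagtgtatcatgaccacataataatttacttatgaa
The word CCAAT, searched on both strands, was in 6 of the 8 windows, those of AKR1B1, AKR1C1, AKR1C2 and AKR1C3, and in 34.6% of all 35116 windows. The 2 windows of AKR1B1 overlap and hold the same CCAAT, 98 bases before one start site and after the other. The windows of AKR1C1, AKR1C2 and AKR1C3 are 66.5% to 93.5% identical to each other and hold it 73 to 86 bases before their start sites. The 6 windows are therefore not separate cases to set beside 34.6%. The core of the antioxidant response element, TGACNNNGC on either strand, was in none of the 8 windows and in 13.3% of all windows. The AP-1 core TGANTCA was also in none of the 8, and in 7.7% of all windows. With 8 windows, a count of none is near both shares. Bases outside the windows were not searched, so these counts do not say whether a member has either core elsewhere.

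Of 36 tested NRF2 target genes outside the family, 15 were lower and none higher at the threshold, beside 5.21% and 5.25% of all tested genes. The list had a median log2 fold change of −0.42 beside 0 for all genes tested. At an unadjusted p under 0.05 there were 21 lower and 2 higher, with no share of all genes at that threshold to set beside them. DESeq2 called 18 lower and 2 higher (HMOX1 and ME1), where over all 16787 genes it called 1392 lower and 1426 higher. The list was drawn up with a similar result of these data known and is no independent evidence. TXNRD1, the thioredoxin reductase gene, fell from 1588 ± 65.2 to 922 ± 48.1 CPM (−0.78 ± 0.06 SE, edgeR adjusted p = 0.000914), and the efflux transporter gene ABCC3 by 1.07 on the log2 scale. Leaving out any 1 of the 6 libraries kept TXNRD1 and ABCC3 past the threshold.

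Among genes of the NRF2 switch itself, none of 12 was called by edgeR or DESeq2, and at an unadjusted p under 0.05 there was 1 higher and 1 lower. By edgeR 10.5% of all tested genes were called in either direction, and 12 genes are too few to tell none from that share. NFE2L2, which encodes NRF2, was at 46.4 ± 14.9 CPM in si-NC, against 46.4 ± 12.4 with si-SNHG17-1. KEAP1, its inhibitor, was at 68.0 ± 6.97 and 76.0 ± 3.86 CPM. SQSTM1, an autophagy receptor that binds KEAP1 and the most abundant of the 12, was at 1202 ± 197 and 1216 ± 182 CPM. NFE2L2 and KEAP1 were picked for mention because of their role.

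Partners of AKR1B1 and AKR1A1 in sugar metabolism were lower in 3 of 7 tested genes and higher in none (1 higher at an unadjusted p under 0.05, none by DESeq2), with a median log2 fold change of −0.35. All 3 were on the glucuronate side, that of AKR1A1, which was itself not called. The shares of all tested genes were 5.21% lower and 5.25% higher. Like the other lists, this one was chosen with earlier results of these data known. UGP2, which makes UDP-glucose, fell from 206 ± 13.3 to 139 ± 5.16 CPM, a change of −0.56 ± 0.08 (SE) on the log2 scale (edgeR, adjusted p = 0.0062), and kept the call whichever library was left out. UGDH, which makes UDP-glucuronate (−0.51 ± 0.10 SE, edgeR adjusted p = 0.0203), kept it only without si-NC replicates 1 or 3 (up to 0.0786 without si-SNHG17-1 replicate 3). DCXR, the xylulose reductase gene (−0.74 ± 0.14 SE, edgeR adjusted p = 0.0211), kept it only when replicate 1 of si-NC or replicate 1 of si-SNHG17-1 was omitted (up to 0.0889 without si-SNHG17-1 replicate 3). UGDH is also 1 of the 15 lower NRF2 targets above, and DCXR is also in the carbonyl list below, so these counts are not separate observations. SORD, sorbitol dehydrogenase, which takes up the product of AKR1B1, was not called, at 54.4 ± 5.93 and 46.4 ± 5.85 CPM. KHK, also of the polyol side, was not called either, at 15.4 ± 1.28 and 12.1 ± 1.60 CPM. SORD and KHK were picked for mention because of their role.

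Of 18 tested genes of steroid metabolism and steroid receptors, 3 were lower and none higher (2 higher at an unadjusted p under 0.05, none by DESeq2), with a median log2 fold change of −0.13. Among all tested genes 5.21% were lower and 5.25% higher. HSD17B4, a peroxisomal enzyme of fatty acid and steroid oxidation, fell from 129 ± 8.40 to 82.8 ± 1.57 CPM (−0.64 ± 0.08 SE, edgeR adjusted p = 0.00432), and HSD3B7, of bile acid synthesis, from 63.0 ± 3.57 to 38.9 ± 4.30 CPM (−0.69 ± 0.11 SE, edgeR adjusted p = 0.0106). Both stayed past the threshold whichever library was omitted, with adjusted p up to 0.0302 and 0.0462. HSD17B8 (−0.82 ± 0.15 SE, edgeR adjusted p = 0.0172) kept it only when si-NC replicate 1, si-NC replicate 2 or replicate 2 of si-SNHG17-1 was omitted, with up to 0.0771 without si-SNHG17-1 replicate 1.

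Of 15 tested retinoid genes, 3 were lower and none higher (4 higher at an unadjusted p under 0.05, and RDH5 by DESeq2), with a median of −0.02. Over all tested genes 5.21% were lower and 5.25% higher, shares that also stand beside the carbonyl list below. None of the 15 was called lower when any 1 of the si-SNHG17-1 replicates was omitted. SDR16C5, a retinol dehydrogenase gene, had a log2 fold change of −0.97 ± 0.16 (SE, edgeR adjusted p = 0.0119), RDH10 of −0.58 ± 0.13 (0.0316) and the retinal dehydrogenase gene ALDH1A3 of −0.41 ± 0.08 (0.0231). SDR16C5 lost the call when any 1 of the si-SNHG17-1 replicates was omitted (edgeR adjusted p up to 0.0669, without replicate 1), and RDH10 and ALDH1A3 kept it only without si-NC replicate 1 (up to 0.120 without si-SNHG17-1 replicate 1, and 0.104 without si-SNHG17-1 replicate 3). Among 26 other carbonyl-metabolising enzymes 4 were lower and none higher (2 higher at an unadjusted p under 0.05, and CBR4 by DESeq2), with a median of −0.26. That count fell to 1 when replicate 2 of si-NC or replicate 1 of si-SNHG17-1 was omitted, and to 0 when replicate 3 of si-NC, replicate 2 of si-SNHG17-1 or replicate 3 of si-SNHG17-1 was. The 4 were ALDH1A3, DCXR, ALDH1B1 (−0.38 ± 0.10 SE, edgeR adjusted p = 0.0484, called in none of the 6 fits with a library omitted and named after its value was seen) and the fatty aldehyde dehydrogenase gene ALDH3A2 (−1.01 ± 0.22 SE, edgeR adjusted p = 0.0297), which kept the call only without si-NC replicates 1 or 2 (up to 0.109 without si-SNHG17-1 replicate 3).

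Prostaglandin genes moved both ways, with 2 of 13 tested higher and 2 lower and a median log2 fold change of −0.18. Of all tested genes, 5.25% were higher and 5.21% lower. PTGS2, the inducible cyclooxygenase gene, rose from 37.0 ± 1.82 to 112 ± 4.00 CPM (1.60 ± 0.08 SE, edgeR adjusted p = 0.000252) and stayed past the threshold whichever library was omitted. AKR1C3, which makes prostaglandin F further down the same pathway, was at 54.2% of control. The prostaglandin transporter gene SLCO2A1 (0.72 ± 0.14 SE, edgeR adjusted p = 0.0221) and PTGES2 (−0.43 ± 0.09 SE, 0.0306) kept the call only without si-NC replicate 2, with adjusted p up to 0.082 and 0.120 without si-SNHG17-1 replicate 3. ABCC4 (−0.40 ± 0.09 SE, edgeR adjusted p = 0.0314) lost it in all 6 such fits (up to 0.115 without si-SNHG17-1 replicate 1).

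**Figure D5:**
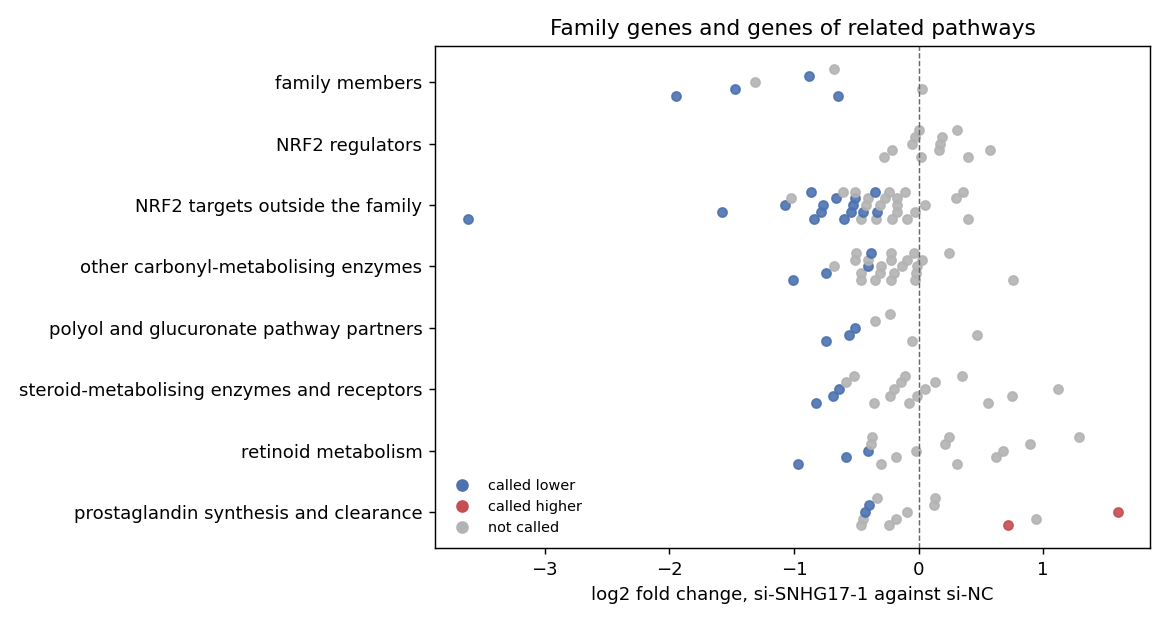
Log2 fold change (x axis) of each tested gene of the family and of 7 lists of related genes (rows), with genes called lower in blue, called higher in red and not called in grey; vertical scatter within a row has no meaning. The family and the NRF2 targets lie mostly left of 0, the 12 NRF2 regulators hold no called gene, and PTGS2 is the rightmost point at 1.60. The point at −3.62 is CYP4F11, which was scarce at 0.995 CPM in si-NC and at 0.0744 CPM, near the floor, with si-SNHG17-1.

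The 5 genes whose log2 CPM followed AKR1C2 most closely over the 6 libraries were TUFM, a mitochondrial elongation factor gene (Pearson r of 0.996), NHP2, SPOUT1, HDDC3 and HES7 (0.994 to 0.996), among 13640 candidates with a mean of at least 1 CPM. With 6 libraries in 2 separated groups, such values also hold the group difference that the libraries share. Their log2 fold changes were −0.33, −0.38, −0.31, −0.50 and −0.44. SPOUT1 and HES7 did not pass the threshold (edgeR adjusted p of 0.0557 and 0.0508). HDDC3 lost its call in all 6 fits with a library omitted (up to 0.179), NHP2 kept it only without si-NC replicate 1 (up to 0.0982), and TUFM lost it when any 1 of the si-SNHG17-1 replicates was omitted (up to 0.0991).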

How the data were processed

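RNA libraries of 6 samples were sequenced, and the counts the authors deposited are whole numbers per gene, not normalised, in 1 table. HISAT2 and the build GRCh38 are named in the submitters' processing notes, and the counting program, its annotation, the read length and the strand setting were not given in the sources used here. Groups came from the titles. The counts were fitted for all genes with edgeR 4.0.16 in R 4.3.3 (filterByExpr with a minimum count of 10 and total of 15, TMM scaling, quasi-likelihood F test, Benjamini-Hochberg adjustment), with 0.05 as the threshold on the adjusted p. Each standard error is the size of the log2 fold change over the root of its F statistic. The fit was tested on simulated data. Coding sequences, transcript lengths and exons came from GENCODE release 29 and were aligned with Biopython 1.88, and promoters came from RefSeq.

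The genes named are all members, SNHG17, up to 3 called genes per list and direction with the smallest adjusted p (otherwise the most abundant), the same for genes within 500 kb, and the 5 genes most like the member with the largest change. Some genes that fit these rules are not reported here. The members and the 7 lists were chosen with earlier results of these data known. Alternatives were no filter, total counts, size factors by median of ratios, DESeq2 1.42.0, a replicate block, each library left out, summed paralogs and another length. Libraries of 1 group always differed by more than sampling noise, with chi-square values of 25.8 to 54.8 per degree of freedom.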

Additional observations from a re-analysis of the deposited data

How the results depend on the processing

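The 4 members called lower (AKR1B1, AKR1C1, AKR1C2 and AKR1C3) numbered 4 with every other scaling, filter and tool, with the replicate block and in 5 of the 6 fits with a library left out, and 5 without si-NC replicate 1, when AKR1B15 joined them. No member was called higher in any of these fits. The family was chosen on this contrast, so this says nothing of its stability relative to other genes. Over all genes 980 were higher and 974 lower, 1426 and 1392 with DESeq2, 1168 and 781 with total counts only (59.9% of calls higher, against 50.2%), 979 and 959 with median-of-ratios factors, 670 and 627 with no filter, 273 and 259 with the replicate block, and 313 to 694 higher and 264 to 705 lower with a library left out. NRF2 targets called lower numbered 15, 8 with the replicate block and 10 to 14 with a library left out. Those called higher numbered none, 1 with total counts only, 2 with DESeq2 and from 0 to 2 with a library left out. With the replicate block the carbonyl, polyol, steroid and retinoid lists each held 1 gene called lower, against 4, 3, 3 and 3, and the prostaglandin list 1 higher and 0 lower, against 2 and 2. HSD3B7 was among those that lost the call (edgeR adjusted p = 0.0594). In all, 12 named genes lost their call under the block. Over the tested genes together, same-numbered libraries had correlations of their deviations from group means of −0.017, −0.037 and −0.015. A pairing by replicate number in single genes was not tested. Some uncalled genes changed sign without a library, the cause of which was not tested: AKR1A1 (range −0.03 to 0.11, −0.03 without si-NC replicate 1), SQSTM1 (range −0.09 to 0.16, −0.07 and −0.03 without si-NC replicates 1 and 3, −0.09 without si-SNHG17-1 replicate 2) and FAM208B (range −0.2 to 0.13, 0.13 without si-NC replicate 1). Coding length, chosen after seeing the data, was shorter than the longest transcript in every member. The level per kilobase of all 7 tested members therefore had to rise, while the order of AKR1C1 and AKR1A1 changed. Coding length replaced the planned length from RefSeq proteins, which was not run. Depth sets the upper limit given for AKR1C4 in si-NC.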
